A study of Mus musculus with 12 samples.

Results

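Transcripts of T cells and natural killer (NK) cells were followed through 12 libraries of sorted mouse alveolar macrophages. The 10 genes were taken by name: the T cell receptor constant regions Trac, Trbc1 and Trbc2, the receptor's CD3 chains Cd3d, Cd3e and Cd3g, the kinase Lck, and the surface or membrane genes Thy1, Nkg7 and Ms4a4b. They are 10 of the 26855 genes with a row in the deposited table, and all 10 were found. The cells came from lung lavage fluid of mice, and every group was collected on day 14 after bleomycin, which damages alveoli and serves as a model of lung fibrosis. No untreated mice were among the libraries used here, and the labels give neither strain, sex nor age. Size filtration gave fractions with many or few border-associated macrophages, and flow sorting on side scatter and BODIPY, which stains lipid droplets, gave the final populations. The 3 groups of 4 libraries are titled UPBIG, UPSMALL and DOWN, and the labels do not tie these titles to a filter fraction or a sorting gate. They name no lymphocyte marker in the sort, and they do not say that the 4 libraries of a group came from separate mice. The p-values therefore measure the spread between these libraries, which may be technical.

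The T cell receptor is a pair of antigen-binding chains, alpha and beta in most T cells, each built from a rearranged variable segment and a constant region. The chains carry no signalling tail of their own, so the receptor reaches the surface and signals only together with the CD3 chains and the zeta chain Cd247. On antigen contact the Src family kinase Lck, held by CD4 or CD8, phosphorylates the CD3 and zeta tails, which recruit the kinase Zap70. NK cells lack the rearranged receptor and share with cytotoxic T cells the granule genes, among them Nkg7. Lymphocytes enter the alveolar space in injured lung and are recovered in lavage beside macrophages.

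Library totals lay between 17109669 and 23282621 counts, and levels are given as CPM, counts per 1000000 counts of the library total as scaled by the TMM method. Genes of the alveolar macrophage list summed to 124195 to 129292 CPM in UPBIG, 63375 to 122998 in UPSMALL and 80707 to 114123 in DOWN, and all 18 listed genes had counts in every library. The defining marker Siglecf was at 39.2 to 44.9 CPM in UPBIG, 23.8 to 36.5 in UPSMALL and up to 23.7 in DOWN. In the edgeR test described below, it was higher in UPBIG and in UPSMALL than in DOWN (adjusted p under 0.05). Defining markers of the labelled cell type were thus present in every library.

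All 10 T and NK cell transcripts were most abundant in the DOWN libraries and low in both other groups. Summed over the 10, they reached 145, 40.4, 141 and 69.3 CPM in the 4 DOWN libraries, between 3.82 and 11.3 CPM in UPBIG and between 3.64 and 11.0 CPM in UPSMALL. The lowest DOWN library thus stood above the highest of all other libraries. Gene by gene, every UPBIG library lay below every DOWN library for 9 of the 10, as for 10.3% of all 12625 tested genes, and every UPSMALL library lay below every DOWN library for 10 of the 10, as for 4.37% of all tested genes. The summed counts were 13.9 times as high in DOWN as in UPBIG (95% interval 12.6 to 15.3) and 15.4 times as high as in UPSMALL (14.1 to 16.8). These intervals treat every read as independent and leave out the spread between libraries, so they are too narrow for a difference between groups. Amplified reads also carry no molecular identifiers and may repeat a molecule, so even counting error is not fully covered. Even in DOWN the 10 genes took 0.00443% to 0.0154% of all counts. In bulk libraries, fewer cells of a type and less RNA per cell cannot be told apart. All 10 passed the filter on low counts, but when only the 8 UPBIG and UPSMALL libraries were filtered, 4 did. The other genes passed through DOWN, where they were high, so the number that passed is no support for a difference.

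**Figure D1:**
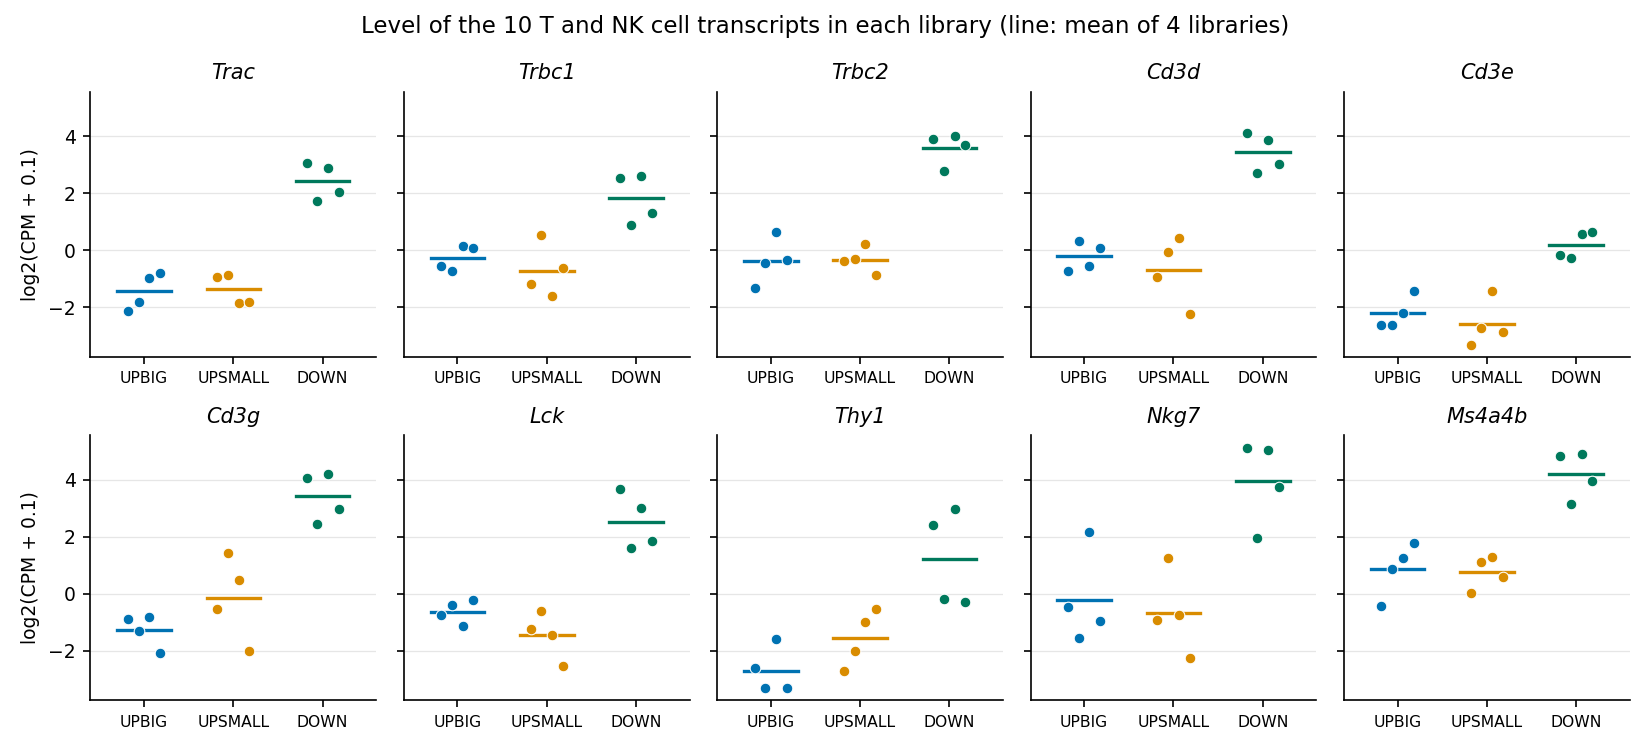
Level of each of the 10 transcripts as log2(CPM + 0.1) on a common vertical axis, with 1 point per library, 4 libraries per group and a line at the mean of the plotted log2 values. DOWN stands above both other groups in every panel, apart from the Nkg7 point of UPBIG3 (4.34 CPM), which lies above the lowest DOWN point (3.76 CPM).

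The constant region of the receptor alpha chain, Trac (mm10, chr14:54220521-54224206, plus strand), had 2, 3, 7 and 7 counts in UPBIG, 8, 9, 4 and 5 in UPSMALL, and 190, 67, 142 and 85 in DOWN. The lowest DOWN library thus held over 7 times the counts of any library of the other groups. In CPM this was 0.298 ± 0.172 (SD, n = 4) in UPBIG, 0.309 ± 0.148 in UPSMALL and 5.66 ± 2.42 in DOWN. Trac was lower in UPBIG than in DOWN by a log2 fold change of -4.23 ± 0.56 (SE; edgeR quasi-likelihood test, Benjamini-Hochberg adjusted p = 2.66e-05) and lower in UPSMALL than in DOWN by -4.20 ± 0.54 (adjusted p = 0.000471). An adjusted p under 0.05 counts as a call here and below. Between UPBIG and UPSMALL it differed by -0.03 ± 0.59.

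The beta chain has alternative constant regions, and a T cell uses 1 of them. Trbc1 (chr6:41538218-41539881) and Trbc2 (chr6:41546730-41548352) lie side by side on the plus strand of chromosome 6. Their coding parts are 95.6% identical: of 518 aligned bases 23 differ, 1 of them in the first exon of 375 bases and 22 in the 143 bases after it. Where a read falls therefore bears on whether it can be assigned to 1 gene, as the letters show. Bases 201 to 300 of the coding part, from the first exon, read as follows in the annotated genome (GENCODE M21, mm10), with the base that differs in capitals.
Trbc1: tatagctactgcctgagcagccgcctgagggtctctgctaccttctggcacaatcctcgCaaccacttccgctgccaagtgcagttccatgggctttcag
Trbc2: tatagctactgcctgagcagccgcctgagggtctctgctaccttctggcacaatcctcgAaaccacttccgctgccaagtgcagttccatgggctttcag
Bases 376 to 500, from the later exons, differ far more often, again with differing bases in capitals.
Trbc1: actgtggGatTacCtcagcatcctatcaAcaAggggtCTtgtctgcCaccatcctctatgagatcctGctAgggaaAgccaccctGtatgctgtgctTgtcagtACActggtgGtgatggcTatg
Trbc2: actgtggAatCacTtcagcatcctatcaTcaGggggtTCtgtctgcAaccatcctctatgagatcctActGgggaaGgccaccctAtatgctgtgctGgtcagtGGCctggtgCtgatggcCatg
The longest stretch without a difference is 259 bases, and 60.3% of all 50-base windows of the Trbc1 coding part also occur in Trbc2. The expected counts of both were not whole in 9 of 12 libraries, values that arise when reads are divided between genes.

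Trbc2 was at 0.293, 0.632, 1.46 and 0.682 CPM in UPBIG, 0.674, 0.704, 1.06 and 0.441 in UPSMALL, and 14.9, 6.78, 15.9 and 12.8 in DOWN. Trbc1 was at 0.579, 0.504, 0.996 and 0.955 CPM in UPBIG, 0.336, 1.34, 0.230 and 0.551 in UPSMALL, and 5.62, 1.74, 5.94 and 2.36 in DOWN. Every DOWN library was above every other library for both genes, with a narrow gap for Trbc1 between DOWN2 and UPSMALL2. Trbc2 was lower in UPBIG than in DOWN by -3.99 ± 0.42 (edgeR adjusted p = 2.16e-06) and in UPSMALL by -4.11 ± 0.42 (adjusted p = 2.98e-05). For Trbc1 the differences were smaller, -2.38 ± 0.60 (adjusted p = 0.00875) and -2.67 ± 0.60 (adjusted p = 0.0332). The second call for Trbc1 was lost without UPSMALL1, UPSMALL3, UPSMALL4, DOWN1 or DOWN3 (adjusted p between 0.0614 and 0.141). Because reads of the near-identical exon cannot be assigned with certainty, the split between the genes is uncertain and both were also tested as 1 summed row. The sum was lower by -3.43 in UPBIG (adjusted p = 2.76e-06) and by -3.63 in UPSMALL (adjusted p = 3.04e-05) than in DOWN.

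The CD3 genes sit together on chromosome 9 of mm10, Cd3g at chr9:44969572-44980431 on the minus strand, Cd3d at chr9:44981786-44987339 on the plus strand and Cd3e at chr9:44998740-45009627 on the minus strand. The 3 span 40.1 kb, and the starts of Cd3g and Cd3d, which point away from each other, are 1355 bases apart. All 3 were highest in DOWN, as were the rest of the 10 genes. Deviations of log2 CPM from the group means correlated at 0.74 between Cd3d and Cd3g. For Cd3e the correlation was 0.44 with Cd3d and 0.14 with Cd3g. The 250 bases before each start are shown as a description only. They come from RefSeq's GRCm38.p6 annotation, 5′ to 3′ on the gene's own strand, with searched motifs in capitals.
Cd3g, chr9:44980432-44980681, minus strand: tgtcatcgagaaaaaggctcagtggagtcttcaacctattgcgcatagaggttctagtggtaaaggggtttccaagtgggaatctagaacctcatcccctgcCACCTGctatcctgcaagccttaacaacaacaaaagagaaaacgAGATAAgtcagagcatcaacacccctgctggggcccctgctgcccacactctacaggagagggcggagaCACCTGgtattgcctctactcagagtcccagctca
Cd3d, chr9:44981536-44981785, plus strand: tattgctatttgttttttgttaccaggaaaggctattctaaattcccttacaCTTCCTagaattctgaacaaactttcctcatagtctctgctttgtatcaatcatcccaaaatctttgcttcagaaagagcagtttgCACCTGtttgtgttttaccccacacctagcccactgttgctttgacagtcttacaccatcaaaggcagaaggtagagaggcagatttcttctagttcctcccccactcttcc
Cd3e, chr9:45009612-45009861, minus strand: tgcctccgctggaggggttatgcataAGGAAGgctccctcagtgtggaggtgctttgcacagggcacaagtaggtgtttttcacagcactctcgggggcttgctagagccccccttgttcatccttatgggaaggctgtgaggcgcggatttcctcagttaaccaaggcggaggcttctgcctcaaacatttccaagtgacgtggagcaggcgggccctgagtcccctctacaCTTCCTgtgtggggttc
Each window was searched on both strands for an E-box (CACCTG), a RUNX core (TGTGGT), the GATA family (AGATAA) and an ETS core with its flanks (AGGAAG), which do not overlap here. The Cd3g window held 2 E-boxes and 1 GATA site, the Cd3d window 1 E-box and 1 ETS match, and the Cd3e window 2 ETS matches. Over 32851 windows of the same length, an E-box occurred in 17.2%, a RUNX core in 14.0%, a GATA site in 9.99% and an ETS match in 29.5%. A match describes the letters and is not a site shown to be bound. RefSeq entries were matched for 6 of the 10 genes (7 windows, since Lck has 2 starts).

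Cd3d had 8, 19, 10 and 14 counts in UPBIG, 8, 17, 28 and 3 in UPSMALL, and 401, 132, 283 and 171 in DOWN. Cd3g had 7, 5, 8 and 2 counts in UPBIG, 11, 52, 29 and 4 in UPSMALL, and 382, 110, 363 and 163 in DOWN. Cd3e had the fewest counts, 1, 1, 2 and 4 counts in UPBIG, 0, 1, 6 and 1 in UPSMALL, and 18, 15, 27 and 31 in DOWN. For each of the 3 CD3 genes every DOWN library lay above all 8 others, but UPSMALL1, UPSMALL2 and UPSMALL3 held more Cd3g than any UPBIG library. In CPM, Cd3d was 0.794 ± 0.302, 0.658 ± 0.495 and 11.5 ± 5.19 in UPBIG, UPSMALL and DOWN (SD, n = 4). On the same scale Cd3g was 0.335 ± 0.152, 1.15 ± 1.07 and 12.0 ± 6.46, and Cd3e ranged from 0.0598 to 0.273 in UPBIG and from 0 to 0.267 in UPSMALL, with 1.08 ± 0.386 in DOWN.

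Cd3d was lower in UPBIG than in DOWN by -3.85 ± 0.52 (edgeR adjusted p = 4.58e-05) and in UPSMALL by -4.14 ± 0.52 (adjusted p = 0.000471). Cd3g was lower in UPBIG by -5.12 ± 0.74 (adjusted p = 0.000242) and in UPSMALL by -3.39 ± 0.64 (adjusted p = 0.0223), the latter not called without UPSMALL1 (0.0809) or UPSMALL3 (0.0639). Cd3g was also the only one of the 10 with an unadjusted p under 0.05 between UPBIG and UPSMALL (-1.73 ± 0.75, adjusted p = 0.233). Leaving out UPSMALL4 took that difference to -2.11 with an adjusted p of 0.0451. Cd3e was called lower in UPBIG than in DOWN (-3.04 ± 0.93, edgeR adjusted p = 0.0294) but not in UPSMALL (-3.50 ± 0.94, adjusted p = 0.0799). Its call rested on few counts: it was lost without UPBIG1, UPBIG2, UPBIG3, DOWN2, DOWN3 or DOWN4, with adjusted p between 0.0524 and 0.0976.

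Lck (chr4:129548344-129573641, minus strand), the kinase that starts receptor signalling, was at 0.498, 0.658, 0.352 and 0.750 CPM in UPBIG, 0.319, 0.550, 0.267 and 0.0734 in UPSMALL, and 12.7, 2.94, 7.86 and 3.49 in DOWN. The groups did not overlap between DOWN and either of the others, while UPBIG and UPSMALL did. The difference from DOWN was -3.57 ± 0.56 in UPBIG (edgeR adjusted p = 0.000189) and -4.49 ± 0.59 in UPSMALL (adjusted p = 0.000492). Fyn, the other Src family kinase of T cells, which is also expressed elsewhere, fell in UPBIG against DOWN by 1.56 on the log2 scale (adjusted p = 2.14e-05). Frk, of the same family, rose by 1.56 (adjusted p = 0.0170), a call lost without UPBIG4 (0.0506). Fyn was at 5.55 to 7.35 CPM in UPBIG and 13.7 to 22.9 in DOWN.

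Thy1 (chr9:44043384-44048579, plus strand), a glycolipid-anchored protein of T cells and some stromal cells, had 1, 0, 4 and 0 counts in UPBIG, 1, 3, 9 and 16 in UPSMALL, and 120, 16, 151 and 15 in DOWN. A count of 0 allows up to 3 counts at this depth. DOWN1 and DOWN3 were thus high and DOWN2 and DOWN4 low, the last with fewer counts than UPSMALL4 though at a higher CPM (0.707 against 0.588 CPM). The difference from DOWN was -5.44 ± 1.07 in UPBIG (edgeR adjusted p = 0.00154) and -3.52 ± 0.90 in UPSMALL, which was not called (adjusted p = 0.0671). The UPSMALL difference was called without DOWN4 (0.0383), by DESeq2 (0.00323) and without a filter on low counts (0.000185). The size of the UPBIG difference rested on few counts, 4 of the 5 in UPBIG3: without that library it was -7.04, and without DOWN3 it was -4.74.

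Nkg7 (chr7:43437073-43438249, plus strand), a protein of cytotoxic granules, was at 0.623, 0.239, 4.34 and 0.409 CPM in UPBIG, 0.425, 2.25, 0.489 and 0.110 in UPSMALL, and 34.9, 3.76, 32.9 and 13.4 in DOWN. It was the only one of the 10 whose UPBIG and DOWN libraries overlapped, since UPBIG3 lay above DOWN2. The difference from DOWN was -3.89 ± 1.10 in UPBIG (edgeR adjusted p = 0.0372) and -4.73 ± 1.15 in UPSMALL (adjusted p = 0.0975, not called). The UPBIG call was lost without UPBIG1, UPBIG2, UPBIG4, UPSMALL1, UPSMALL3, DOWN1, DOWN3 or DOWN4 (adjusted p between 0.0519 and 0.0952), and without UPBIG3 the difference was -5.63. Some other genes, chosen after their values were seen, were also high in UPBIG3. It held 7.38 CPM of granzyme Gzma against 0 in the other UPBIG libraries, 5.62 CPM of Gzmb against 0.136 to 0.249, and 42.7 CPM of the surfactant gene Sftpc against 0 to 1.02. Listed NK and cytotoxic genes without Ccl5, these granzymes included, summed to 18.9 CPM in UPBIG3 against 2.49 to 5.66 in other UPBIG libraries. Ccl5 was at 33 CPM in UPBIG3 against 0.249 to 18, and Fasl had 14 counts against 0. Not every gene of these kinds was high in UPBIG3: Prf1 and Ctsw had 0 counts there. The lung epithelial list summed to 70.8 CPM in UPBIG3 and 267 CPM in UPBIG2. The part of other cells in these values was not tested.

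Ms4a4b (chr19:11443553-11467055, plus strand), a tetraspan membrane protein of T and NK cells, was at 0.646, 1.74, 2.30 and 3.35 CPM in UPBIG, 0.907, 2.06, 2.36 and 1.40 in UPSMALL, and 28.4, 8.77, 29.7 and 15.3 in DOWN. DOWN did not overlap either group, while UPBIG (2.01 ± 1.13 CPM) and UPSMALL (1.68 ± 0.655) overlapped each other. It was lower by -3.37 ± 0.48 in UPBIG (edgeR adjusted p = 0.000189) and by -3.61 ± 0.48 in UPSMALL (adjusted p = 0.00177) than in DOWN. Its expected counts were not whole in any of the 12 libraries, so reads were shared with other genes and its level is uncertain to that extent. Its neighbour in sequence Ms4a4c, at 6.38 to 16.0 CPM in UPBIG and 13.2 to 25.0 in DOWN, was not called (-0.92 ± 0.41, adjusted p = 0.154). Of 9 tested Ms4a genes other than Ms4a4b, 4 fell and 1 rose in UPBIG against DOWN, against 8.48% and 9.03% of all tested genes. Ms4a6b fell by 1.84 on the log2 scale (adjusted p = 4.22e-06), with falls of Ms4a6c (by 0.82) and Ms4a6d (by 0.50) and of Ms4a14, and Ms4a8a rose by 0.63 (adjusted p = 0.00306).

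Levels of different genes were compared only per kilobase of the longest annotated transcript. In DOWN the order of the means was Nkg7 (24.1 ± 17.2 CPM per kilobase, SD, n = 4), Trbc2 (18.2 ± 5.89), Cd3g (11.7 ± 6.31), Cd3d (7.13 ± 3.21), Trac (6.06 ± 2.59), Trbc1 (5.31 ± 2.95), Ms4a4b (4.32 ± 2.14), Lck (3.09 ± 2.08), Thy1 (2.06 ± 1.98) and Cd3e (0.741 ± 0.264). Each neighbouring pair in that order differed by less than the sum of its SDs. In UPBIG, the mean of Nkg7 (1.59 ± 2.23) rested on UPBIG3, Trbc2 (1.11 ± 0.716) and Trbc1 (1.03 ± 0.343) were close to each other, and Thy1 (0.0427 ± 0.0638) was lowest.

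Read together, 10 of the 10 genes were called lower in UPBIG than in DOWN (edgeR, adjusted p under 0.05), against 8.48% of all 12625 tested genes called lower (1070 genes) and 9.03% called higher (1140). With library totals alone in place of TMM scaling, 3237 were called lower and 518 higher, and all 10 were still called lower. The median log2 fold change of the 10 was -3.87, that of all tested genes -0.03. Without single libraries 8 to 10 of the 10 were called, and all 10 fold changes kept their sign in each of these fits. The 10 were chosen with earlier results of these data known, and several passed the low-count filter only through DOWN, where they were high. The count of calls thus describes these genes and is no independent support for a difference.

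In UPSMALL against DOWN, 7 of the 10 were called lower (Trac, Trbc1, Trbc2, Cd3d, Cd3g, Lck and Ms4a4b), where 0.547% of all tested genes were (69 genes, with 75 called higher). Without single libraries these counts ran from 19 (without UPSMALL1) to 100 (without UPBIG1) lower and from 39 (without UPSMALL1) to 102 (without DOWN4) higher. They fell by more than 1.5 times also without UPSMALL3, DOWN1, DOWN2 or DOWN3, and the lower count without UPSMALL2. The median log2 fold change was -3.86, that of all tested genes -0.00. DESeq2 called all 10, among them Cd3e (adjusted p = 0.0188), Thy1 (0.00323) and Nkg7 (0.0014). UPBIG and UPSMALL were set against the same DOWN libraries, so these results are not independent of each other. The limits from the choice and filtering of the 10 genes hold here too.

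Between UPBIG and UPSMALL, 0 of the 10 were called by edgeR and 0 by DESeq2, against 2.49% of all tested genes called lower and 3.22% called higher by edgeR (314 and 406 genes, or 1433 and 189 with library totals alone). The unadjusted p was under 0.05 for 1 of the 10, against 17.9% of all tested genes. No gene of the 10 separated UPBIG from UPSMALL libraries without overlap, whereas 5.35% of all tested genes were lower in every UPBIG library. The log2 fold changes ran from -1.92 ± 1.10 for Thy1 to 0.92 ± 0.61 for Lck, with a median of 0.26. With standard errors of 0.44 to 1.18, sizeable differences in either direction may not have been detectable at this depth. Set against the midpoint of UPBIG and DOWN on the log2 scale, UPSMALL was lower for all 10 in direction (median -2.03), and 2 of the 10 were called, Trbc2 (-2.12 ± 0.38, adjusted p = 0.0145) and Lck (-2.71 ± 0.54, adjusted p = 0.0362), where 0.0871% of all tested genes were called lower. This count was 0 without UPSMALL1 or UPSMALL4 and 1 without UPBIG2, UPBIG4, UPSMALL2, DOWN1 or DOWN3.

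**Figure D2:**
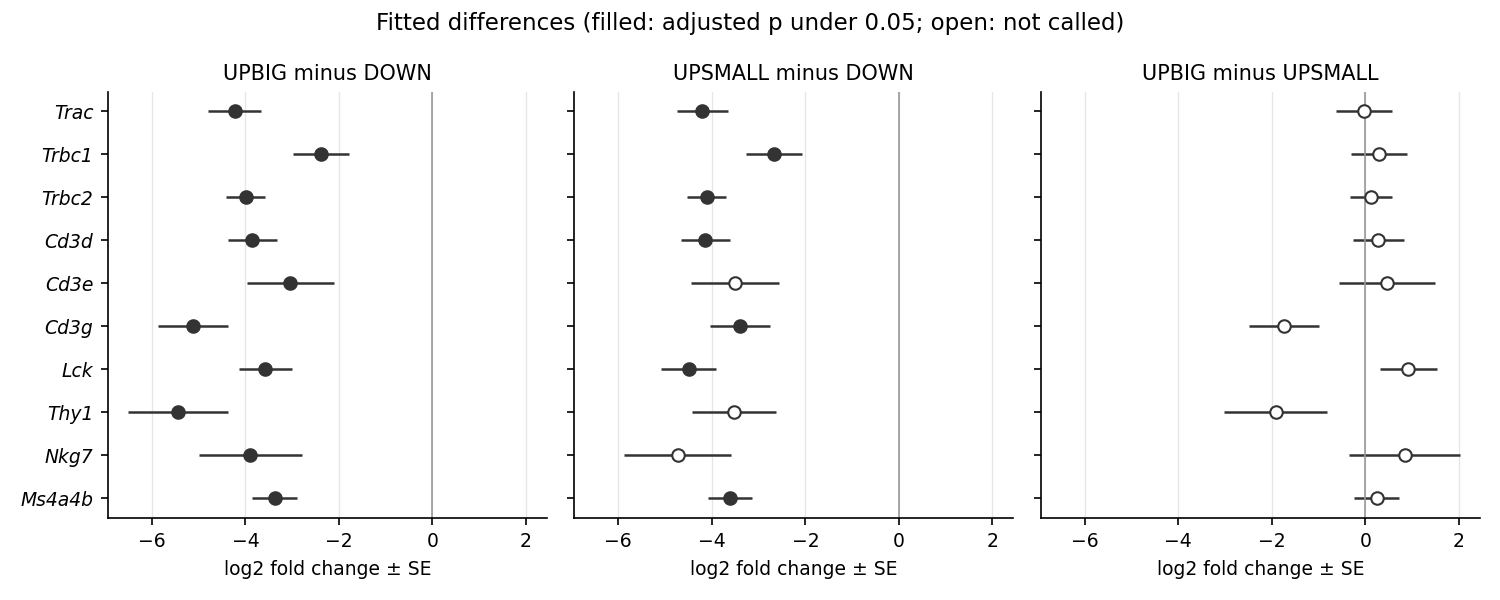
Fitted log2 fold change of each gene with its standard error in the 3 comparisons of groups, filled where the adjusted p was under 0.05. Against DOWN all values are negative (-5.44 to -2.38 for UPBIG and -4.73 to -2.67 for UPSMALL), and between UPBIG and UPSMALL all points are open.

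The 10 genes ranked the 4 DOWN libraries in much the same way. DOWN3 was highest for 5 genes, DOWN1 for 4 and DOWN4 for 1 (Cd3e). DOWN2 was lowest for 9 genes and DOWN4 for Thy1. Across all 12 libraries, the deviations of log2 CPM from the group means were compared for the 45 pairs of the 10 genes. Their Pearson correlation had a median of 0.48 (range 0.00 to 0.80, n = 12 libraries that share depth and preparation), a description with no test. Ms4a4b (0.80), Nkg7 (0.77) and Trbc2 (0.73) followed the mean of the other 9 most closely, and Thy1 (0.46) and the sparse Cd3e (0.31) least.

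By the same measure, the genes most like the mean deviation of the 10 were Nup160 (0.93), a nuclear pore protein, Trim12c (0.90), Plac8 (0.89), Nudt7 (0.89), Cd28 (0.88), Wdr37 (0.87), Yme1l1 (0.86) and Gin1 (0.86), out of 11347 genes and over 12 libraries. Of these, Plac8, a gene of several leukocyte types, also shared the group pattern, at 0 to 0.645 CPM in UPBIG, 0.159 to 1.30 in UPSMALL and 14.3, 2.55, 12.9 and 2.64 in DOWN. It fell in UPBIG against DOWN by 4.43 on the log2 scale (edgeR adjusted p = 0.00285). DOWN1 and DOWN3 were high for Plac8 as for most of the 10. Nup160 was at 3.59 to 6.07 CPM in UPBIG and 3.76 to 7.96 in DOWN and was not called (-0.30 ± 0.31).

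Variable segments of the receptor were counted as well, since the 10 genes hold none. They are no independent readout, because a receptor transcript joins a variable segment to the constant region of Trac, Trbc1 or Trbc2. Of the alpha and beta chain segments, 50 had a row in the table. The number with a count was 5, 2, 2 and 6 in the UPBIG libraries, 5, 3, 3 and 1 in UPSMALL, and 18, 16, 20 and 14 in DOWN. Every DOWN library thus held at least 14 segments and every other library at most 6. Over a group, 12 segments were seen in UPBIG with 22 counts, 10 in UPSMALL with 16 counts and 46 in DOWN with 184 counts. Immunoglobulin variable segments, the B cell counterpart, did not follow this order: of 58 with a row, 28, 14, 1 and 1 had a count in UPBIG, 23, 19, 6 and 4 in UPSMALL, and 0, 13, 5 and 5 in DOWN. Annotated segments are short, and expected counts of similar segments can be shared, so these numbers describe breadth only.

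**Figure D3:**
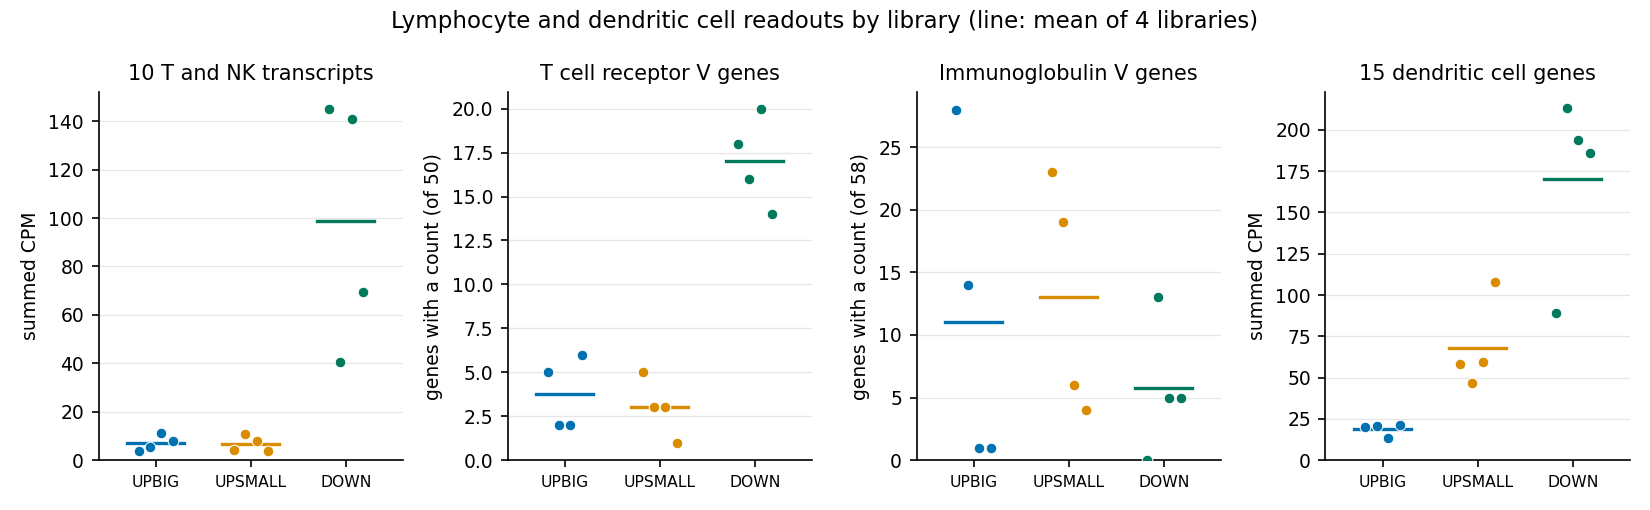
Each panel has 1 point per library and a line at the mean of 4 libraries, showing the summed CPM of the 10 transcripts, the number of T cell receptor variable segments with a count, the same for immunoglobulin segments, and the summed CPM of 15 dendritic cell genes. DOWN libraries stand above all others in the second panel (14 to 20 segments against 1 to 6), and the third panel shows no such order.

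Other genes of the T cell programme were read from lists of receptor signalling, lineage factors, subsets and homing, and NK and cytotoxic function. These hold 85 genes in all with the gamma delta list, 80 had a row and 42 were tested. In UPBIG against DOWN, 8.48% of all tested genes were called lower and 9.03% higher. Among the 42, 25 fell and 0 rose (median log2 fold change -2.46). As with the 10, many passed the filter through DOWN: with the 8 UPBIG and UPSMALL libraries alone 21 were tested. Of 12 tested signalling genes 6 fell. They were Zap70 (-4.22), the adaptors Lat (-1.09) and Tespa1 (-3.92), the receptor modulator Cd5 (-4.43), the Ras activator Rasgrp1 (-1.90) and the CD45-associated Ptprcap (-2.33). The calls of Zap70 and Tespa1 depended on single libraries, Tespa1's on DOWN3 (0.0530 without it) and Zap70's on UPBIG2, UPBIG3, UPBIG4, DOWN3 and DOWN4 (0.0557 to 0.0993). Those of Lat (edgeR adjusted p = 0.0301) and Ptprcap (0.045) were not followed in the fits without single libraries.

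Of 5 tested lineage factors 4 fell. Tcf7, a transcription factor of T cell development and memory, was at 0 to 0.0623 CPM in UPBIG, 0.0367 to 0.178 in UPSMALL and 0.909, 0.963, 5.93 and 1.27 in DOWN. It fell by 5.93 on the log2 scale in UPBIG (edgeR adjusted p = 0.000607), and DOWN overlapped neither other group, while UPBIG and UPSMALL overlapped. Runx3 (-1.94, adjusted p = 0.00735), Satb1 (-3.01, 0.0159) and Ets1 (-2.72, 0.0390) fell too. Satb1 was not called without DOWN3 (0.0842), nor Ets1 without UPBIG1, UPBIG3, UPBIG4, DOWN1 or DOWN3 (0.0705 to 0.140).

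Of 15 tested subset and homing genes 9 fell, among them the CD8 chain Cd8a. It was at 0.0682 to 0.243 CPM in UPBIG, 0.0445 to 0.319 in UPSMALL and 4.16, 0.481, 4.06 and 2.97 in DOWN. DOWN overlapped neither other group, while UPBIG and UPSMALL overlapped (UPBIG against DOWN -4.06 ± 0.79, adjusted p = 0.00125). The tissue-homing receptor Cxcr6 was lower by -4.75 (0.00389), the costimulatory receptors Tnfrsf4 by -3.35 (0.000220) and Tnfrsf18 by -1.89 (0.00170), and the checkpoint receptor Ctla4 by -4.36 (0.00500). The lymph node homing receptor Ccr7 was lower by -4.98 (0.00317) and is also a marker of migrating dendritic cells. Il2ra, S1pr1 and Cxcr3 were called as well, but were not followed in the fits without single libraries. Foxp3, the factor of regulatory T cells, was at 0.173 to 1.28 CPM in UPBIG and 0.252 to 2.58 in DOWN and was not called (-0.42, adjusted p = 0.763).

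Some genes known from T cells did not follow the 10 in UPBIG against DOWN. Cd2, an adhesion receptor, was at 96.5 ± 20.4 CPM in UPBIG, 57.6 ± 16.3 in UPSMALL and 52.8 ± 23.3 in DOWN (SD, n = 4), with a log2 difference of 0.87 ± 0.31 between UPBIG and DOWN (edgeR adjusted p = 0.0771, not called). DESeq2 called it (0.0393), as did edgeR without UPSMALL4 (0.0378) or DOWN3 (0.00692). Its UPBIG and DOWN libraries overlapped, with no DOWN library above the UPBIG range. The interleukin receptor Il7r (28.6 to 45.2 CPM in UPBIG, 37.9 to 45.0 in DOWN) and the adaptor Lcp2 (54.7 to 73.6 and 63.4 to 70.9) were abundant in both groups and not called. Cd28, the costimulatory receptor, was at 4.17 to 5.73 CPM in UPBIG, 0.266 to 0.650 in UPSMALL and 3.51, 0.433, 2.89 and 0.754 in DOWN. It was higher in UPBIG than in UPSMALL by 3.56 ± 0.59 (edgeR adjusted p = 0.000786) without overlap. Every UPBIG library also lay above every DOWN library (1.36 ± 0.52, edgeR adjusted p = 0.0812, not called, DESeq2 0.0469). UPSMALL was lower than DOWN by -2.19 ± 0.57, as for the 10 in direction (edgeR adjusted p = 0.071, not called, DESeq2 0.00957). Within groups Cd28 was among the genes most like the 10 (0.88). Cd4 was at 1.93, 2.81, 9.37 and 3.75 CPM in UPBIG, 0.534 to 1.43 in UPSMALL and 1.25 to 2.16 in DOWN. It was higher in UPBIG than in UPSMALL by 2.47 ± 0.52 (adjusted p = 0.00564, or 0.0528 without UPBIG3). Between UPBIG and DOWN the difference was 1.43 ± 0.49 (adjusted p = 0.0520, not called), which DESeq2 called (0.0237), as did edgeR without a filter (0.0388), with size factors (0.0493), with only the 8 libraries compared (0.0462), or without UPBIG1 (0.0245), UPSMALL1 (0.0434) or UPSMALL4 (0.0465). Cd28 and Cd4 were the 2 genes called higher in UPBIG than in UPSMALL among the 42, and Il18rap the 1 called lower (-2.79, adjusted p = 0.0260). That call was absent without UPBIG2, UPBIG4, UPSMALL2 or UPSMALL4 (0.0608 to 0.0794).

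**Figure D4:**
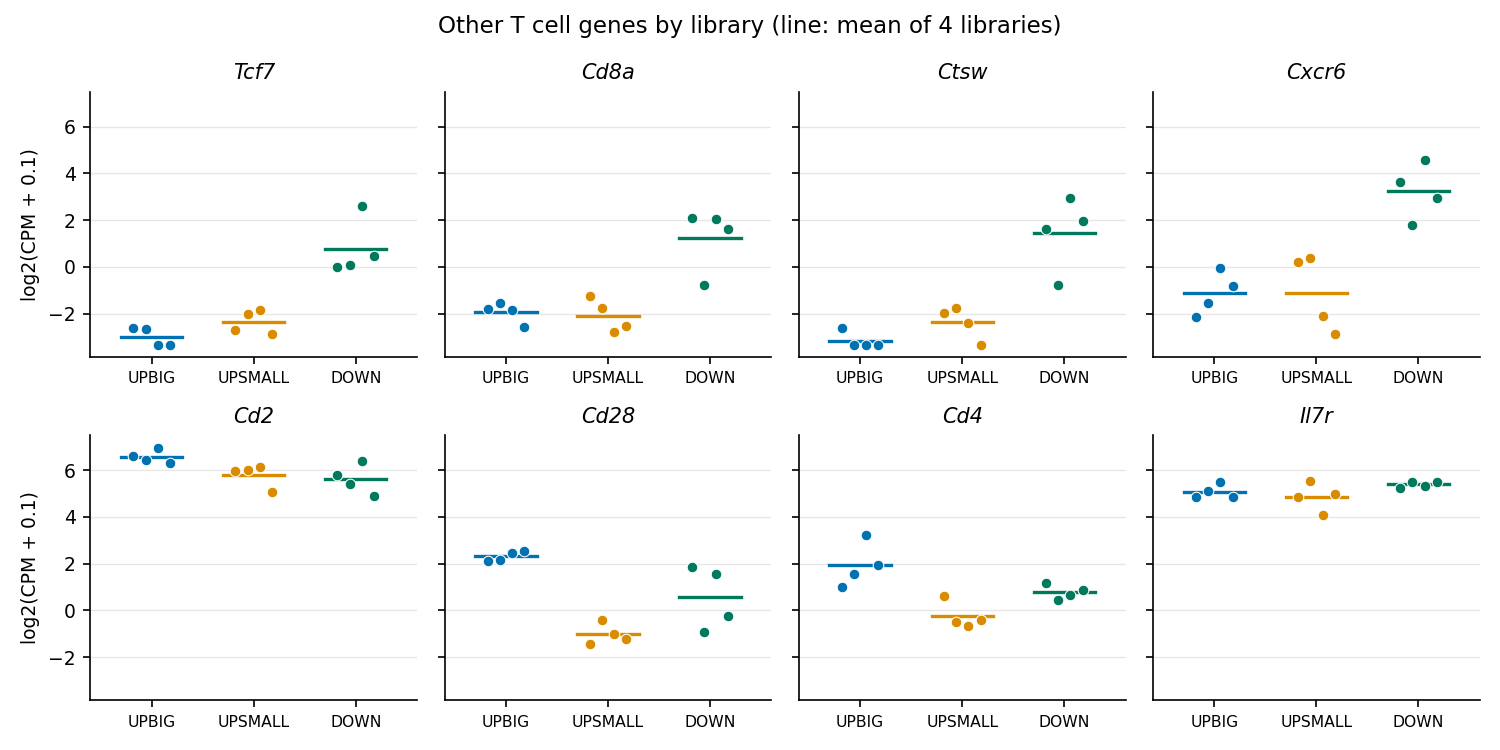
Level of 8 other T cell genes as log2(CPM + 0.1) on a common axis, 1 point per library and a line at the mean of the plotted values. Tcf7, Cd8a, Ctsw and Cxcr6 are highest in DOWN, while Cd2, Cd28, Cd4 and Il7r are not low in UPBIG (Cd28 at 4.17 to 5.73 CPM there). The 8 were picked after their values were seen.

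In UPSMALL against DOWN, 0.547% of all tested genes were called lower. Of the 42, 9 fell and 0 rose: Tespa1, Tcf7, Satb1, Cd8a, Ctla4, Cxcr6, Tnfrsf4, Cd96 and Ctsw. The count moved with single libraries. It was 14 without UPBIG1, 2 without UPSMALL1, 4 without UPSMALL2 or UPSMALL3, 3 without DOWN1 and 1 without DOWN3. Only Cd8a, of the 9, was called in all 12 fits without a library (adjusted p = 0.0118 with all libraries, at most 0.0477). DESeq2 called 19.

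NK and cytotoxic genes gave a mixed picture. Of 11 tested, 6 fell in UPBIG against DOWN: the granule protease gene Ctsw (-7.42 ± 1.14, edgeR adjusted p = 0.000141), the NK receptor genes Klrk1 (-3.24, 0.000522) and Klrd1 (-4.19, 0.00106), Il18rap (-3.30, 0.00355), Il2rb (-3.54, 0.0102) and Cd96 (-3.17, 0.0250). Ctsw had 1 count in all UPBIG libraries together, 9 in UPSMALL and 311 in DOWN. The DOWN libraries held 2.99, 0.481, 7.66 and 3.82 CPM of Ctsw, and none of the others reached DOWN2. Cd96 was not called without UPBIG1, UPBIG3, UPBIG4, DOWN1 or DOWN3 (0.0537 to 0.0924). Il2rb rested largely on DOWN3, at 9.99 CPM against 0.519 to 0.952 in the other DOWN libraries. Its call was not followed in the fits without single libraries. Granzyme Gzmk was listed with 2 counts in UPBIG, 0 in UPSMALL and 143 in DOWN, with DOWN2 at 0 as well. Klrg1 had 1, 0 and 69 counts, and its DOWN libraries held 2.12, 0.578, 0.406 and 0 CPM, so that DOWN4 overlapped the other groups. Other listed genes did not follow the 10 in UPBIG against DOWN. Gzma had 126, 0 and 64 counts in UPBIG, UPSMALL and DOWN, and Gzmb had 105, 10 and 143. UPBIG3 held 126 of these Gzma counts and 96 of the Gzmb counts. Ccl5, at 0.249 to 33 CPM in UPBIG and 24.8 to 99.8 in DOWN, was not called (-2.07 ± 0.98, edgeR adjusted p = 0.193).

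Several markers of NK cells had few counts. Ncr1, which encodes NKp46, had 1 count in all 12 libraries, in DOWN3. Klrb1c, the NK1.1 gene, had 24, 28 and 33 counts over UPBIG, UPSMALL and DOWN and was not called (-0.00 ± 1.07 for UPBIG against DOWN). Klre1, an NK receptor gene below the count filter, had 0, 1 and 45 counts, with 0.606, 0.481, 0.101 and 0.896 CPM in DOWN and no other library above 0.0445. The perforin gene Prf1, which cytotoxic T cells use too, had 10, 0 and 2 counts. Genes of gamma delta T cells were sparse as well: 8 of 11 listed genes had a row, 0 passed the filter, and their counts summed to 34, 13 and 56. The delta constant region Trdc had 17 counts in DOWN, all in DOWN1, 1 in UPSMALL and 0 in UPBIG.

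Most tested dendritic cell genes, like the 10, were called lower in UPBIG than in DOWN. Of 14 tested genes on that list of 15, 10 fell and 0 rose (median -4.23), against 8.48% and 9.03% of all tested genes. The list was chosen with earlier results of these data known. As with the 10, genes low in the other groups may have passed the low-count filter through DOWN, so this count only describes the list. In UPSMALL against DOWN the pattern was less alike: 2 of the 14 were called lower (Xcr1 and Kit), against 7 of the 10 T and NK transcripts and 0.547% of all tested genes. The list summed to 13.4 to 21.6 CPM in UPBIG, 46.9 to 108 in UPSMALL and 89.0 to 213 in DOWN. Flt3, a growth factor receptor that marks dendritic cells, was at 0 to 0.0586 CPM in UPBIG, 0.178 to 2.28 in UPSMALL and 1.73, 4.62, 5.48 and 4.57 in DOWN. The order within DOWN differed from that of the 10, since DOWN2 was highest in the dendritic sum and lowest in theirs. UPSMALL also stood apart: the dendritic sums of UPBIG and UPSMALL did not overlap, whereas those of the 10 did. The part of dendritic cells in the T and NK result was not tested.

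The other lists were read in UPBIG against DOWN, where 8.48% of all tested genes were called lower and 9.03% higher. The B cell list had 0 genes lower and 1 higher (Cd22) of 10 tested. It summed to 67.8 to 129 CPM in UPBIG, 45.6 to 82.9 in UPSMALL and 52.4 to 92.4 in DOWN. The neutrophil list had 1 lower (Mmp8) and 2 higher (S100a8 and Cxcr2) of 6. Lung epithelial genes had 1 lower (Cdh1) and 1 higher (Scgb1a1) of 8. The Scgb1a1 value of 3.45 rested on UPBIG2 (1.44 without it), and its call was lost without any 1 of the UPSMALL or DOWN libraries (adjusted p between 0.0511 and 0.101), without a filter (0.0717) and with only the 8 libraries compared (0.1). The list of type 2 innate lymphoid cells had 0 of 2. Of 18 alveolar macrophage genes 10 rose and 1 fell (Car4). In UPSMALL against DOWN, 5 of these 18 rose (Siglecf, Marco, Ear1, Fabp4 and Plet1) and 0 fell, where 75 of all 12625 tested genes were called higher. Fabp4 was not called there without any 1 of the UPSMALL libraries or without DOWN3 (0.0565 to 0.0721). Of 11 listed genes of mast cells, basophils and eosinophils 2 had a row (Tpsab1 and Ccr3), and both had 0 counts in all DOWN libraries.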

How the data were processed

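Cells were lysed without RNA extraction and their polyadenylated RNA was turned into amplified cDNA with a SMART-Seq kit, per the labels' protocols. The authors deposited expected counts per gene and library, made with RSEM and STAR on mm10, per the submitters' processing notes. Versions, annotation and strandedness were not given in the sources used here. Cd3e overlaps the annotated genes Gm48719, on the opposite strand, and Gm48720, on the same strand, and Lck overlaps Mir8119 on the same strand. Reads of such overlapping genes may be mixed. Of the deposited values 13.8% are not whole; they were rounded. Symbols came from GENCODE M21.

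The 12 libraries entered 1 fit in edgeR 4.0.16 under R 4.3.3, with TMM scaling, filterByExpr and robust quasi-likelihood F tests. Benjamini-Hochberg adjustment ran over 12625 genes, and an adjusted p under 0.05 counted as a call. Standard errors were taken as log2 fold change over root F. Ratios use summed counts scaled by TMM-adjusted library totals, with exact 95% intervals. The fit was tested on simulated data. DESeq2 1.42.0 and other scalings, filters and libraries were alternatives; summing Trbc1 and Trbc2 and the midpoint contrast were added after seeing the data. The 10 genes and all lists were chosen with earlier results of these data known. Beyond the 10, up to 4 called genes per list with the smallest adjusted p, members of counts of 5 or fewer and the 8 most alike genes were named; others, such as Cd2, Foxp3, Flt3 values, Gzmk, Klrg1 and Ncr1, were chosen after their values were seen.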

Additional observations from a re-analysis of the deposited data

Results flagged for a closer look

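In UPBIG, Nkg7 was at 4.34 CPM in UPBIG3 against 0.239 to 0.623 in the other 3 libraries. The gap to the nearest library was 0.906 of the group's whole range, above the 95% critical value of Dixon's test for 4 samples. Chance alone marks about 1 in 20 groups, and 36 groups were checked in this way.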

How the results depend on the processing

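Library totals limit precision: most values of the 10 genes in single UPBIG or UPSMALL libraries were under 20 counts. Against DOWN, all 10 fold changes were negative in 120 of 120 values from fits without a library and in 65 of 65 from the other alternatives, for UPBIG and for UPSMALL alike. Leaving out a library gave 8 to 10 of the 10 called lower in UPBIG against DOWN, 5 to 8 in UPSMALL against DOWN, 0 to 1 in UPBIG against UPSMALL and 0 to 3 against the midpoint. The other T and NK genes called lower then ranged from 17 to 33, 1 to 14 and 0 to 2 in the same 3 comparisons of groups. With at least 5 CPM in 4 libraries, 4 of the 10 were tested and 4 called lower in both comparisons with DOWN, and of 9 other T and NK genes 5 were called lower in UPBIG against DOWN and 0 in UPSMALL against DOWN or UPBIG against UPSMALL; fewer genes tested lowered these counts. Without a filter on low counts, 1 of the 10 was called lower in UPBIG against UPSMALL (Cd3g, adjusted p = 0.00526) and 5 against the midpoint, as were 4 other T and NK genes in UPBIG against UPSMALL and 26 in UPSMALL against DOWN. DESeq2 called 5 of the 10 lower against the midpoint, and 2 and 19 of the others in UPBIG against UPSMALL and UPSMALL against DOWN. Library totals alone gave 3 of the others in UPBIG against UPSMALL and moved the median of all genes to -0.36 in UPBIG against DOWN. The causes were not tested.

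Without a filter, Cd3e (0.0883) and Nkg7 (0.0742) lost their calls in UPBIG against DOWN, and Thy1 gained one in UPSMALL against DOWN (0.000185). With only the 8 libraries compared, Nkg7 (0.0610) lost its call in UPBIG against DOWN and Cd3g (0.0919) in UPSMALL against DOWN. The labels do not say whether replicate numbers pair the libraries, and the main fit did not pair them. Deviations of same-numbered libraries correlated between -0.0285 and 0.154 (median 0.0908, against -0.0261 for other numbers). The value was above 0.1 in 5 of 12 pairs, while UPBIG3 correlated best with UPSMALL4 (0.112). These weak correlations do not settle whether same-numbered libraries were paired. With the replicate number as a block, 9 of the 10 were called lower in UPBIG against DOWN, 6 in UPSMALL against DOWN, 0 in UPBIG against UPSMALL and 3 against the midpoint, and 2 of the other T and NK genes in UPBIG against UPSMALL. Under the block Cd2 was called higher in UPBIG than in DOWN (0.95, adjusted p = 0.000173) and in UPSMALL (0.77, 0.00221), and Scgb1a1 lost its call (2.47, 0.142). Over all genes, UPBIG against UPSMALL gave 314 lower and 406 higher calls, with 473 lower without a filter and 610 higher by DESeq2. UPSMALL against DOWN gave 69 lower calls, with 196 without a filter, 41 with at least 5 CPM in 4 libraries, 191 by DESeq2 and 126 with the block, and 75 higher calls, with 264, 68, 202 and 149 under the same settings.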
